A study of Mus musculus with 5 samples.

Results

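The anoctamins, also called the TMEM16 proteins, were followed here as a family of 10 genes, Ano1 to Ano10, in the transcriptome of the mouse forelimb bud. Every one of the 10 symbols matched exactly 1 of the 28092 rows of the deposited table, which lists levels for 23725 rows that name a gene. The family was chosen by the level of 1 member: Ano3 was among the largest differences between the genotypes, and the other 9 genes were added because they belong to the same family, whatever their values. Since Ano3 was selected on this very contrast, and the whole family because of it, the members' values below are a description and carry no test of their own.

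The samples were forelimbs of embryos at E11.5 (47 to 48 somites) from a mixed C57BL/6 and Swiss Webster background, 3 labelled control and 2 labelled Prmt5cKO. The Prmt5cKO genotype is given as Prx1Cre+/-;Prmt5c/c, so that the Prx1Cre recombinase, which is active in limb bud mesenchyme, could act on both conditional copies of Prmt5, the gene of an arginine methyltransferase. The labels say of the other group only that it is control, and do not state which alleles or whether the recombinase it carried. Levels are in FPKM (fragments counted per length of transcript and per total of mapped fragments), and the authors deposited 1 level per genotype computed over its replicates, together with a log2 fold change (Prmt5cKO relative to control) and its adjusted p-value, called q. No value below therefore has an SD, the depth per sample is unknown, and every fold change and q is the authors' own.

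The labels were checked on marker genes, and transcripts linked to the sex of the embryos differed with the genotype. Prmt5 itself dropped from 40.9 FPKM in control to 12.5 in Prmt5cKO. Limb mesenchyme genes were present in both, such as Prrx1 at 122 and 107 FPKM (not tested) and the forelimb factor Tbx5 at 23.0 and 19.9. The 13 limb mesenchyme markers with a row summed to 709 FPKM in control and 716 in Prmt5cKO. Of these, 7 were listed higher in Prmt5cKO and 6 higher in control. Lhx2 alone had an authors' q under 0.05, at 20.2 FPKM in control and 27.9 in Prmt5cKO. Another 10 did not pass and 2 were not tested. Xist, the RNA of the inactive X, had 87.3 FPKM in control against 0.392 in Prmt5cKO, while Ddx3y, a Y-linked gene, had 0.0840 against 21.8, so for Ano3 and every other member the genotype cannot be told apart from the sex of the embryos.

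Anoctamins are membrane proteins with a shared fold that contains calcium binding sites, and cytosolic calcium opens the channels among them and switches on the scramblases. Ano1 and Ano2 are calcium-activated chloride channels, Ano6 moves phospholipids between the leaflets of the plasma membrane, and several others are described as scramblases or as proteins of the endoplasmic reticulum. The family is known in skeletal tissue through Ano5, altered in gnathodiaphyseal dysplasia, a bone disorder, and in a limb-girdle muscular dystrophy, and through Ano6, whose loss in mice disturbs bone mineralisation. Ano3 is best known from the nervous system, where variants of the human gene cause a dystonia.

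Ano3 was nearly silent in control forelimbs and one of the 4 expressed anoctamins in Prmt5cKO forelimbs. Its level was 0.0772 FPKM in control and 6.15 FPKM in Prmt5cKO, a ratio of 79.6, and the authors' deposited table gives a log2 change of 6.32 (q = 2.18e-13). The control level is near 0 and depth is unknown, so the size of this ratio is uncertain. In control 30.9% of single genes in the table had a lower level than Ano3, and in Prmt5cKO 65.9% did. Of the 548 rows that rose (mean of the genotypes of at least 1 FPKM and an authors' q under 0.05), only 4 had a larger log2 fold change, and all 4 lie on the Y chromosome (Eif2s3y, Kdm5d, Uty and Ddx3y). The authors' second deposited table, 208 rows with log2 fold changes of at least 1.003 in size and q-values of at most 0.00958, lists Ano3 as the fifth of its 62 rises and holds no other anoctamin. With 1 FPKM added to each level, which understates the change of a gene this low in control, the log2 difference of Ano3 was 2.73.

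**Figure D1:**
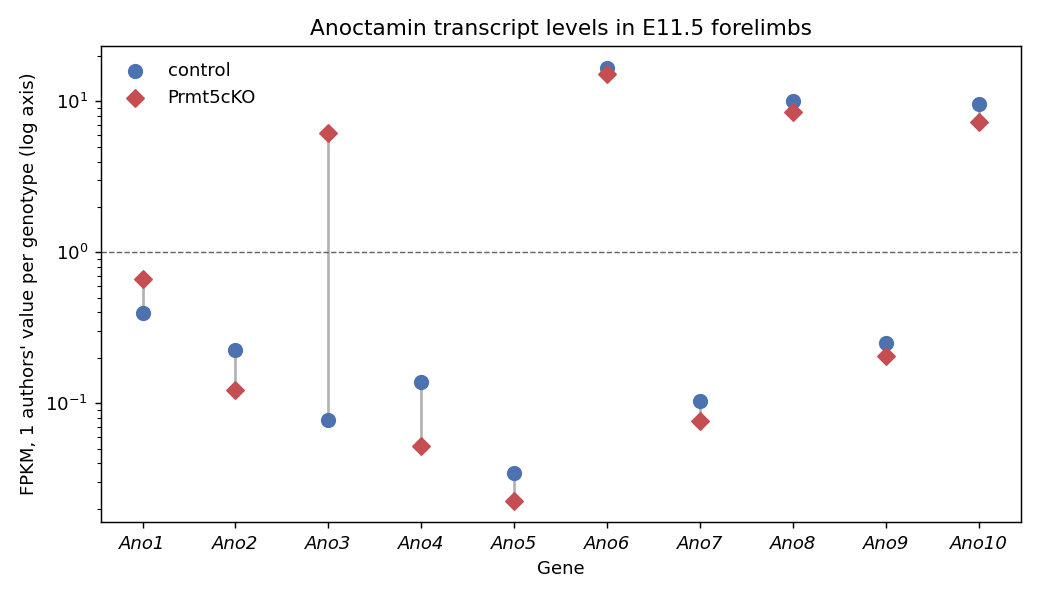
Levels of the 10 anoctamin genes in control (circles) and Prmt5cKO (diamonds) forelimbs, as the authors' FPKM per genotype on a log axis; grey lines join the values of a gene and the dashed line marks 1 FPKM. Ano6, Ano8 and Ano10 lie above 7 FPKM in both genotypes, Ano3 moves from 0.0772 to 6.15 FPKM, and the other 6 genes stay below 1 FPKM.

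Markers of other cell types were set beside the Ano3 level; over all tested rows with a mean of at least 1 FPKM, 4.9% rose and 19.3% fell. Of 16 macrophage markers with a row 14 reached this mean, and of these 12 rose and none fell. The summed level of the 16 was 43.2 FPKM in control and 81.4 in Prmt5cKO. Csf1r, the receptor that macrophages need for survival, rose from 3.36 to 5.57 FPKM, while Cd163 was near 0 in both. The part of these cells in the Ano3 level was not tested. Nerve and neuron markers, listed because Ano3 is known from neurons, summed to 53.9 and 51.1 FPKM over 19 genes. Of these 8 reached a mean of 1 FPKM, 1 of them not tested, with no rise and 2 falls (Erbb3 and Gfra3). Their levels spread widely. In Prmt5cKO Map2 (15.4 FPKM), Gap43 (9.76), Tubb3 (7.06) and Erbb3 (6.93) stood above the 6.15 FPKM of Ano3. Of the 19 genes 8 were listed higher in Prmt5cKO, such as Stmn2 (3.56 and 5.42 FPKM) and Isl1 (0.859 and 1.18), neither of which passed. A mean below 1 FPKM was found for 11 of the 19, and Snap25 (0.0703 and 0.0249), Elavl3 (0.0557 and 0.0814) and Prph (0.102 and 0) were near 0 in both genotypes. The part of nerve and neurons in the Ano3 level was not tested either. The other lists had shares of calls nearer to those of all rows than the macrophage list had. Their calls are counted among genes with a mean of at least 1 FPKM. Surface ectoderm markers summed to 212 and 204 FPKM, with 2 rises and 1 fall among 13. Skeletal muscle markers summed to 175 and 142 FPKM, with 3 falls among 13. Endothelial markers summed to 121 and 111 FPKM, with 3 falls among 12, of which 2 were not tested. Red cell markers summed to 9243 and 7356 FPKM, with 2 falls among 9, of which 1 was not tested. Nothing particular to these cell types is read from them.

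Sequence around the start sites is shown for Ano3, the gene that differs most, and for the abundant members Ano6 and Ano10 as a contrast. RefSeq promoter windows (GRCm38.p6, 250 bases before to 50 bases after a start site) matched 8 of the 10 genes in 11 windows. The Ano3 windows lie on the minus strand at chr2:110950195-110950494 for the outer start and chr2:110840010-110840309 for the inner start. The Ano6 window lies on the plus strand at chr15:95790593-95790892 and the Ano10 window on the minus strand at chr9:122294374-122294673. Each is printed 5′ to 3′, with capitals for the CG dinucleotides (CpG sites).
Ano3, outer start: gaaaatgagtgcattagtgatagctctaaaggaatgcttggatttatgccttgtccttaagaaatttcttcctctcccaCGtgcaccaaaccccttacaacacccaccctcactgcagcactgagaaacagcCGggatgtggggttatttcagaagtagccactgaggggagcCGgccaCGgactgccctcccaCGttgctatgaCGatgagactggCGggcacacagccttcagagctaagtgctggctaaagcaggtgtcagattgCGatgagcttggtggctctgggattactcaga
Ano3, inner start: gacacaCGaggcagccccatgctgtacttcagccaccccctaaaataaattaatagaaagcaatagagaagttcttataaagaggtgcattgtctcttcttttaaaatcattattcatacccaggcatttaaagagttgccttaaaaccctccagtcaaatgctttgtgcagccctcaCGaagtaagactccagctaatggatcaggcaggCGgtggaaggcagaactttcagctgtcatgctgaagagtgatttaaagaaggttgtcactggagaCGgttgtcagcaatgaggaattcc
Ano6: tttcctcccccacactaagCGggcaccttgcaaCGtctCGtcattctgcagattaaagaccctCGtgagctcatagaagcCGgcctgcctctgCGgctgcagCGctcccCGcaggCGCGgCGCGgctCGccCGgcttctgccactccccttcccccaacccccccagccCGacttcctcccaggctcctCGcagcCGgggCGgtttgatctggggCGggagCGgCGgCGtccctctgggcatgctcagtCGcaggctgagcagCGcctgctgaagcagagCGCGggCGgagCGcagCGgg
Ano10: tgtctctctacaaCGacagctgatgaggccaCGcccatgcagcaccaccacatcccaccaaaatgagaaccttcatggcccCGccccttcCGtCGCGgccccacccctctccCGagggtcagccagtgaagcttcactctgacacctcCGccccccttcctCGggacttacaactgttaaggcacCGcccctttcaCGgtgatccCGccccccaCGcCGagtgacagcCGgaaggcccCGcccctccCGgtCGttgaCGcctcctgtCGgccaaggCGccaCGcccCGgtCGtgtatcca

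The RefSeq windows of Ano3 hold fewer CpG sites than those of the abundant members, but they are not placed alike. The outer RefSeq start of Ano3, at 110950244, lies inside the first exon of its GENCODE M21 transcript, which begins at 110950923. For Ano6 and Ano10 the RefSeq and GENCODE starts are the same. The sequence at the GENCODE start of Ano3 was not examined. The outer Ano3 window holds 8 CpG sites and the inner one 4, against 29 for Ano6 and 24 for Ano10, and the median over 32851 RefSeq windows was 7. The other windows of the family held 18 CpG sites for Ano1, 15 for Ano5, 5 to 14 for the 3 windows of Ano2, 4 for Ano7 and 3 for Ano4. Ano6 and Ano10, the abundant members with a matched window, thus had the highest CpG counts among the 8 matched genes. The inner Ano3 window holds the TATA box sequence TATAAA, present on either strand in 13.6% of all windows, and the outer one holds the E-box CACGTG, a palindrome present in 7.15%; neither was found in another family window. The GC box GGGCGG, searched on both strands and present in 35.7% of windows, was in 5 of the 11 family windows and in neither Ano3 window. The decamer of the p53 response element, a palindromic consensus searched without mismatches, was in 8.36% of all windows and in 2 family windows, 1 of Ano2 and that of Ano6, but not in those of Ano3. A pair of such decamers up to 13 bases apart was in 0.0731% of all windows and in none of the family. These are matches of letters within 300 bases, and the levels do not show which start site was used.

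Ano3 (ENSMUSG00000074968.11) is annotated by GENCODE M21 on the minus strand of chromosome 2, between 110655201 and 110950923 of GRCm38 (mm10). It spans 295.7 kb, and the transcript with its longest coding sequence has 27 exons and 6705 bases, 2943 of them coding. Muc15, the gene of a membrane mucin, lies inside Ano3 on the opposite strand, from 110721340 to 110739527. It shares 61 bases with exon 14 of the Ano3 transcript. Slc5a12, a monocarboxylate transporter gene best known from the kidney, lies on the plus strand from 110597298 to 110647779, tail to tail with Ano3, with 7.42 kb between the 3′ ends of the genes. The sources used here do not give whether the libraries kept strand. Without strand, reads in the shared bases cannot be assigned to one gene or the other. The other exon bases of Muc15 lie in introns of Ano3, and the same limit holds there for reads of unspliced Ano3 RNA.

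Both genes at this locus were also listed higher in Prmt5cKO, at far lower levels than Ano3. Muc15 stood at 0.00750 FPKM in control and 0.371 FPKM in Prmt5cKO, and the authors' deposited table gives a log2 change of 5.63, its q being 1. Slc5a12 stood at 0.0150 and 0.146 FPKM, and the authors' deposited table gives a log2 change of 3.28, its q being 1. Neither passed the threshold, so these are values and not called changes. For Muc15 the limit on strand given above applies as well. For scale, 4292 named rows had a listed fold change and a mean between 0.02 and 0.6 FPKM with a level above 0 in both genotypes; 9 of them, Slc5a12 and Muc15 included, had a log2 fold change of at least that of Slc5a12, and 2 had one of at least that of Muc15. Both genes were looked at because they adjoin Ano3 or overlap it.

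Farther out the levels went both ways. Fibin, a secreted protein gene of limb buds, fell from 22.3 to 11.1 FPKM, and the authors' deposited table gives a log2 change of -1.01 (q = 1.09e-12). Lgr4, the gene of an R-spondin receptor, fell from 14.6 to 10.8 FPKM (log2 change -0.44 at q = 7.58e-04, the authors' deposited table). Bbox1 was at 0.259 and 0.0992 FPKM, Ccdc34 at 31.7 and 35.9, Lin7c at 32.6 and 34.6, and Bdnf at 2.23 in both, none with a q under 0.05. On the 5′ side of Ano3 the nearest annotated gene, the long non-coding Gm13942, has no row. The genes with rows on that side are 4930430A15Rik and olfactory receptor genes at or near 0 FPKM. Within 1000000 bases of Ano3, 14 genes with a row had a level above 0 in a genotype, 7 higher in each.

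**Figure D2:**
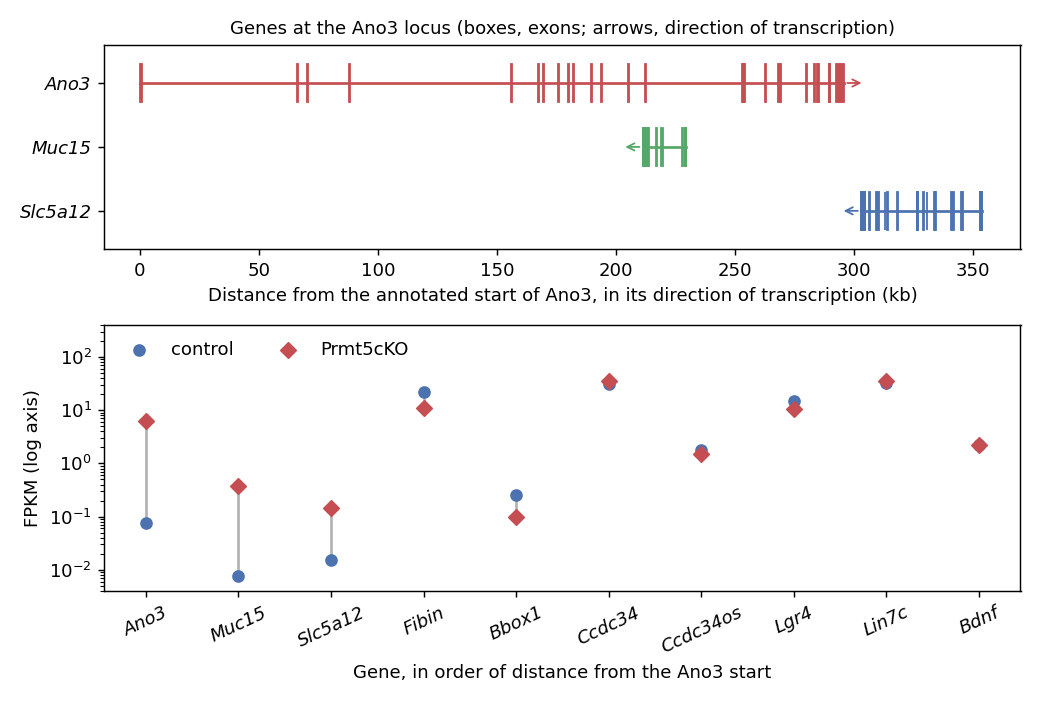
Top, exons (boxes) of Ano3, Muc15 and Slc5a12 by distance in kb from the GENCODE start of Ano3. Arrows give the direction of transcription. Bottom, authors' FPKM on a log axis in control (circles) and Prmt5cKO (diamonds) for Ano3 and the genes within 1000000 bases that have a level above 0 in both genotypes; Muc15 and Slc5a12 are low in both but higher in Prmt5cKO, as Ano3 is. With strand unknown, reads counted for Muc15 cannot all be told from reads of Ano3.

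The 3 other members expressed above 1 FPKM all had their higher level in control. Ano6, the plasma membrane scramblase, was the most abundant anoctamin in both genotypes, at 16.8 FPKM in control and 15.1 in Prmt5cKO. By the authors' deposited table its log2 change was -0.15 (q = 0.326), so it did not pass. Ano8, a protein described at contacts between the endoplasmic reticulum and the plasma membrane, was at 9.99 FPKM in control and 8.45 in Prmt5cKO. By the authors' deposited table its log2 change was -0.24 (q = 0.0116). Ano10, a protein of the endoplasmic reticulum whose loss in humans causes an ataxia, was at 9.57 FPKM in control and 7.34 in Prmt5cKO. By the authors' deposited table its log2 change was -0.38 (q = 0.0493), just under the threshold. Prmt5cKO levels were thus 90.0%, 84.5% and 76.6% of control for Ano6, Ano8 and Ano10.

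Of the 4 anoctamins with a mean of at least 1 FPKM, 1 rose (Ano3) and 2 fell (Ano8 and Ano10) at the authors' q under 0.05. Over all named rows that reached this mean and were tested, 24.2% changed, 4.9% up and 19.3% down. At an authors' q under 0.01, where 3.23% of those rows rose and 13.6% fell, Ano3 alone was called. Because the family was selected on this contrast, nothing is read from the members' counts. The table as a whole leaned the way of Ano8 and Ano10. The median log2 difference over 11674 single genes with a mean of at least 1 FPKM was -0.12 with 1 FPKM added. Relative to this median, Ano8 lay at -0.10, Ano10 at -0.23 and Ano6 at -0.03. Among 4561 rows with a mean between 5 and 20 FPKM, the authors' log2 fold changes had an interquartile range from -0.32 to 0.01, and 5% lay below -0.66. Ano6 and Ano8 were inside that range and Ano10 just below it.

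**Figure D3:**
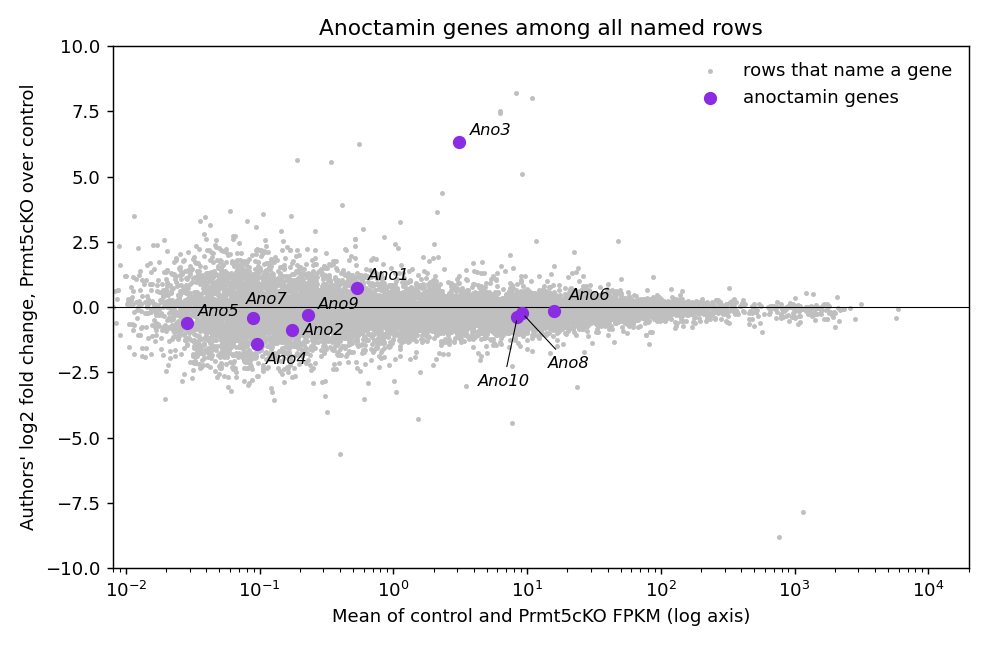
Authors' log2 fold change of Prmt5cKO over control against the mean of both levels (log axis) for named rows that were tested and above 0 FPKM in both genotypes (grey) and for the anoctamins (purple). Ano3 lies at a log2 fold change of 6.32, and of the rows that rose only the Y-linked Eif2s3y, Kdm5d, Uty and Ddx3y lie higher. Ano6, Ano8 and Ano10 lie within the band of rows of like level.

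The chloride channels of the family were low. Ano1, a calcium-activated chloride channel of secretory epithelia, smooth muscle and the pacemaker cells of the gut, was at 0.398 FPKM in control and 0.668 in Prmt5cKO. Besides Ano3 it was the only member listed higher in Prmt5cKO, and the authors' deposited table gives a log2 change of 0.75 (q = 0.124), so it did not pass. Ano2, the channel of olfactory neurons and photoreceptors, was at 0.225 FPKM in control and 0.123 in Prmt5cKO. By the authors' deposited table its log2 change was -0.87, at a q of 1. These channels therefore stood on opposite sides of a ratio of 1, with neither difference called.

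The remaining 4 members were barely detected in either genotype. Ano9, an epithelial member with the older symbol Trp53i5 for a p53-inducible gene, was at 0.251 FPKM in control and 0.205 in Prmt5cKO. Ano4, a brain-enriched relative of Ano3, was at 0.138 and 0.0521 FPKM. Ano7, known from the prostate, was at 0.103 and 0.0765 FPKM. Ano5, the muscle and bone member, was the lowest of the family at 0.0346 and 0.0227 FPKM. All 4, and Ano2, were listed lower in Prmt5cKO with a q of 1, and their log2 fold changes in the authors' deposited table ran from -1.40 (Ano4) to -0.29 (Ano9). Among the 4292 low rows described above, 89.5% had a q listed as 1, the interquartile range of the log2 fold changes was -0.71 to 0.41, and 5% of rows lay below -1.73. A difference the size of Ano4's or Ano2's is thus within the spread of rows at such levels. At these levels a change could not be told from counting error, since depth is unknown.

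The order of the levels changed mainly through Ano3. FPKM is scaled to transcript length, so levels of different genes can be set side by side. In control the order from the top was Ano6, Ano8, Ano10, Ano1, Ano9, Ano2, Ano4, Ano7, Ano3 and Ano5. A gap of 24.1-fold separated Ano10 from Ano1, and no other step between neighbours exceeded 2.23-fold. In Prmt5cKO Ano4 and Ano7, both near 0, changed places, and Ano3 moved up from place 9 to place 4, 1.19-fold below Ano10 and 9.20-fold above Ano1. Ano8 and Ano10 were 1.04-fold apart in control and 1.15-fold apart in Prmt5cKO; with no spread over samples, whether such neighbours differ cannot be said.

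Summed over the 10 genes, anoctamin transcripts were at 37.6 FPKM in control and 38.2 FPKM in Prmt5cKO. Without Ano3 the sums were 37.5 and 32.0 FPKM. The other 9 genes together were lower by 5.46 FPKM in Prmt5cKO and Ano3 was higher by 6.07 FPKM. Ano3 made up 0.205% of the family sum in control and 16.1% in Prmt5cKO. Ano6, Ano8 and Ano10 together made up 96.7% and 80.9%. For Ano6 alone the share was 44.6% in control and 39.5% in Prmt5cKO, and with Ano3 left out of the sum it was 44.7% and 47.1%. In control Ano6 was 217-fold more abundant than Ano3, and in Prmt5cKO 2.46-fold. In whole forelimbs, more cells with Ano3 transcripts and more transcripts per cell cannot be told apart, and the same holds for each lower level.

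**Figure D4:**
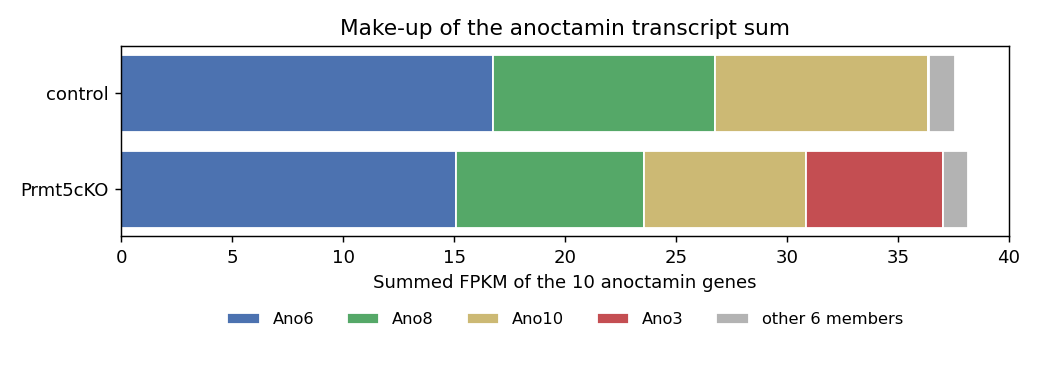
Summed FPKM of the 10 anoctamin genes in control and Prmt5cKO forelimbs, split by gene. The sums are 37.6 and 38.2 FPKM; the Ano3 part is too small to see in control and is 6.15 FPKM in Prmt5cKO.

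The median log2 difference of the 10 members, with 1 FPKM added, was -0.08, and without Ano3 it was -0.11. The median over all single genes in the table was -0.01, with low ones and those at 0 in both genotypes included. At a mean of at least 1 FPKM it was -0.12 over all single genes and -0.18 over the members. Of the members 8 were listed higher in control and 2 (Ano1 and Ano3) higher in Prmt5cKO. Over 45 pairs of coding sequences the identity of aligned bases, gaps not counted, ran from 58.0% to 69.6%, the latter for Ano1 and Ano2. Closest to Ano3 was Ano4 at 68.6%. Runs of identical bases were sought over all annotated transcripts of each gene, untranslated parts included. The longest run that Ano3 transcripts shared with those of any other member was 18. The longest such run in the family was 48, between Ano6 and Ano10. Ano8 and Ano6 overlap exons of other genes: Ano8 shares 80 bases with Dda1 on the opposite strand, which was at 13.6 and 14.2 FPKM, and Ano6 overlaps antisense transcripts without a row of their own.

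Genes with related work were described from lists, which were drawn up with earlier results of these data known; their counts are given beside the shares of all rows above, with no test of a list. Among other scramblases and flippases, the enzymes that move lipids between membrane leaflets, 17 of 28 genes reached a mean of 1 FPKM. Of these 5 fell and 1 rose; 10 more were tested without passing and 1 had no test. Their median log2 difference was -0.14. Atp9b, a P4-type ATPase of the endomembranes, fell from 19.9 to 15.1 FPKM, a log2 change of -0.40 by the authors' deposited table. Plscr3, a phospholipid scramblase family gene, fell from 11.2 to 7.30 FPKM, and Atp8a2, a flippase, from 2.90 to 1.46, for which the authors' deposited table gives log2 changes of -0.62 and -0.99. Atp8a1, a flippase that returns phosphatidylserine to the inner leaflet, also fell, from 4.27 to 3.11 FPKM, a log2 change of -0.46 by the authors' deposited table. Xkr5 was the rise, from 4.43 to 5.71 FPKM (log2 change 0.37 at q = 0.0455, the authors' deposited table). Xkr8, the scramblase that caspases switch on in dying cells, had 1.95 FPKM in control, 1.83 in Prmt5cKO and no call.

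The TMC and TMEM63 genes encode membrane proteins of a related fold. Of 10 with a row of their own, 4 reached 1 FPKM. Tmem63a fell from 3.69 to 2.72 FPKM (log2 change -0.44 at q = 0.0472, the authors' deposited table), Tmem63b (7.52 and 8.15 FPKM) and Tmc7 (2.09 and 2.41) did not pass, and Tmc6 was not tested. Tmc3, below 1 FPKM in the mean, was at 0.918 and 0.523 FPKM with q = 0.0188 in the authors' deposited table.

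Among other chloride channel genes 17 of 34 reached 1 FPKM; 5 fell and none rose, while 11 were tested without passing and 1 had no test. Their median log2 difference was -0.22. Clcn4-2, an endosomal chloride and proton exchanger, fell from 14.1 to 10.7 FPKM and Clcc1, a channel of the endoplasmic reticulum, from 22.9 to 17.4. The authors' deposited table gives both a log2 change of -0.40. Lrrc8b and Lrrc8c, subunits of the volume-regulated anion channel, fell as well, and so did Ostm1, the partner subunit of Clcn7. By the authors' deposited table their log2 changes were -0.55, -0.48 and -0.73. Lrrc8a, the subunit that this channel requires, was at 12.7 and 10.4 FPKM (q = 0.172 in the authors' deposited table). Cftr, the chloride channel of secretory epithelia, was at 0.135 and 0.113 FPKM.

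Of 18 genes that supply calcium or bind anoctamins 14 reached 1 FPKM, and of these 3 fell, none rose, 9 were tested without passing and 2 had no test. With 4.9% of all tested rows rising, a count of 0 in lists of this size is near the background, here and for the chloride channels. Their median log2 difference was -0.15. Itpr2, a calcium release channel of the endoplasmic reticulum, fell from 1.64 to 0.941 FPKM, Stim1, its calcium sensor for refilling, from 6.42 to 5.06, and Calm3, one of the calmodulin genes, from 175 to 142. The authors' deposited table gives them log2 changes of -0.80, -0.34 and -0.30, in that order. Itpr1, of the same channel family as Itpr2, was more abundant and listed higher in Prmt5cKO (8.01 FPKM in control and 10.5 in Prmt5cKO). It was not tested. Ezr, Msn and Rdx encode the membrane to actin linkers that associate with Ano1. Ezr was at 15.8 and 18.1 FPKM and Msn at 27.8 and 24.9, and neither passed. Rdx, at 105 and 98.0, was not tested.

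A last list held targets of p53, the stress-responsive transcription factor. Of 29 with a row of their own 28 reached 1 FPKM, 21 rose, 3 fell (Sesn1, Rrm2b and Ddb2) and 4 did not pass, with a median log2 difference of 1.05 with 1 FPKM added. This list was known to be high in these samples when it was drawn up. Eda2r, a receptor gene, rose from 0.520 to 17.9 FPKM, Ptprv, a receptor phosphatase gene, from 0.315 to 3.93, and Ccng1, a cyclin gene, from 14.2 to 82.2. On the same scale Ano3 was at 2.73.

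**Figure D5:**
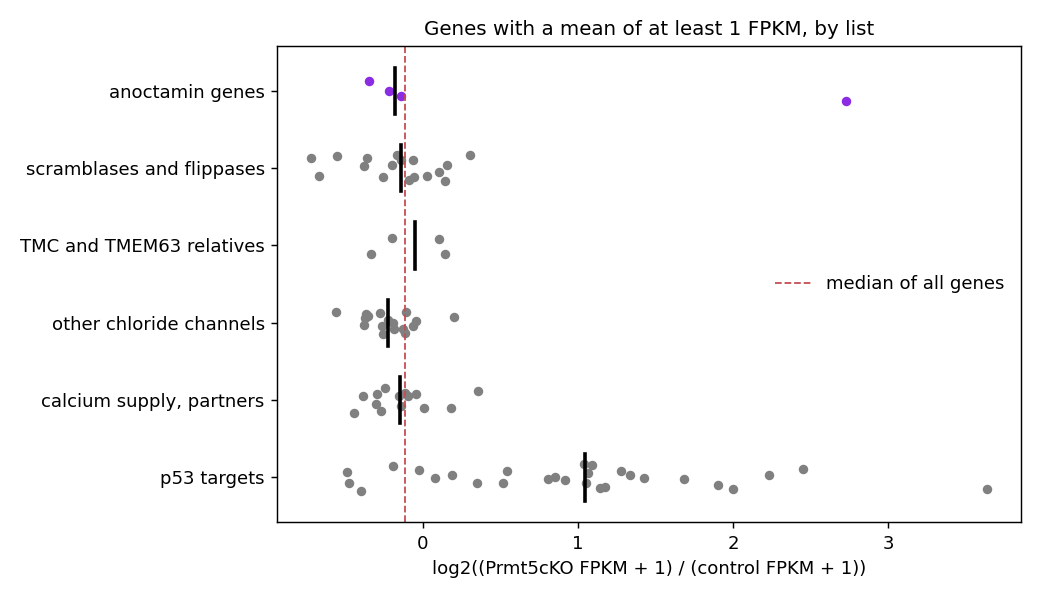
Log2 difference of Prmt5cKO over control with 1 FPKM added, for genes with a mean of at least 1 FPKM (points, spread vertically for legibility), by list; black bars are list medians and the dashed line is the median of all genes at -0.12. Ano3 lies at 2.73 while Ano6, Ano8 and Ano10 lie between -0.34 and -0.14.

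By distance over the 2 levels on a log2 scale (0.1 FPKM added), leaving out predicted, microRNA, small nucleolar and Y-linked symbols, the 10 genes most like Ano3 were Hist1h1t, Ptprv, Hfe, Fas, Fam212b, Eda2r, Svop, Ms4a7, Cgref1 and Mpeg1. Their distances ran from 1.15 to 2.64, where 1 is a 2-fold difference in 1 genotype. Hist1h1t and Hfe were listed at 0 FPKM in control, at 10.8 and 1.62 in Prmt5cKO, and were not tested. Svop came nearest in fold, at 0.0144 and 1.10 FPKM, a log2 change of 6.25 by the authors' deposited table. The likeness rests on 2 values per gene, both of the contrast that singled out Ano3. Of the symbols left out, 3 were nearer to Ano3 than any of the 10: Mir34a (0.217 and 4.44 FPKM) at a distance of 0.956, and the Y-linked Eif2s3y (0.0731 and 12.5) and Uty (0.0680 and 12.5), both at 1.02.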

How the data were processed

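RNA of E11.5 forelimbs, 3 control and 2 Prmt5cKO samples described as biological replicates, was extracted with TRIzol and sequenced on an Illumina instrument, per the labels' protocols. TopHat2 2.0.10, Bowtie2 2.1.0 and Cufflinks 2.1.1 and the mm10 build are named in the submitters' processing notes; for annotation, strand and the test behind the q-values the sources used here state nothing. The deposited tables hold, per the file headers, 1 FPKM per genotype, the authors' log2 fold change and the authors' q-value (adjusted p). Without values per sample, no model was fitted, no SD was computed and the depth is unknown; q-values measure only the spread between these samples as the authors modelled it.

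A row was called at an authors' q under 0.05 and a mean of at least 1 FPKM; a fold change listed as 0 with q 1 was read as not tested. The 4367 rows without a gene name (15.5%) were left out. Differences were computed as log2 of Prmt5cKO + 1 over control + 1 FPKM. The members and lists were chosen with earlier results of these data known. Named genes were all members, the 3 genes of each pathway list with the smallest q, genes beside or overlapping Ano3, and the 10 genes nearest to it in level; others named were chosen after their values were seen. Counting and ratios were tested on simulated data (Python 3.11.15, pandas 2.3.3, numpy 2.4.6). Gene positions are from GENCODE M21 (GRCm38); coding sequences were aligned with Biopython 1.88. Alternatives were other minimums, q thresholds, pseudocounts and a rescaling. The values of 1 listed gene are not reported here.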

Additional observations from a re-analysis of the deposited data

How the results depend on the processing

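No paired analysis was possible because the deposited tables hold 1 value per genotype and no value per sample; leaving out replicates and a fit with the replicate number as a block were not run for the same reason. No direction reversed under the alternatives run. With a minimum mean of 5 FPKM, 0 members were higher (Ano3 falls under it), 3 scramblases and flippases, 0 TMC and TMEM63 genes and 2 other chloride channels were lower. At an authors' q under 0.01, 0 members were lower, 0 scramblases and flippases were higher, and 0 TMC and TMEM63 genes and 2 other chloride channels were lower. With no minimum, 2 TMC and TMEM63 genes were lower. These counts change because fewer or more genes can be called. The Ano3 log2 difference was 5.14 with 0.1 FPKM added, 6.14 with 0.01 FPKM added and 2.83 after rescaling the genotypes by the median ratio, a factor of 0.12 on the log2 scale that moves low genes less once 1 FPKM is added. The members' median was -0.20 with 0.1 FPKM added, -0.33 with 0.01 FPKM added, -0.034 after rescaling, -0.18 over the members with a mean of at least 1 FPKM and -0.11 without Ano3. Unknown depth limits all statements on the 6 members below 1 FPKM. It also limits the control level of Ano3 and every ratio taken on that level.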

Other observations

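Ano3 is a long gene, and gene length was looked at after its values were seen. Among 10753 coding single genes with a mean of at least 1 FPKM, the 416 that span over 250 kb had a median log2 difference of -0.25, and of those tested 43.1% fell and 2.55% rose by the authors' q. Among genes of up to 10 kb the median was -0.10, with 16.7% falling and 3.89% rising, and between 100 and 250 kb it was -0.15, with 28.0% falling and 5.17% rising. The 9 genes over 250 kb that rose include Ano3, which ranked 5 by span among 465 coding rises. Ano3 was chosen for its rise and reaches a mean of 1 FPKM only through its Prmt5cKO level. Nothing is therefore read from its place among the long genes. Of the longer rises Slit3, a guidance cue gene, went from 4.79 to 5.86 FPKM and Thsd4 from 10.6 to 12.6. Nhs went from 3.44 to 4.33 FPKM, and Runx2, the osteoblast transcription factor, from 0.938 to 1.37. Gria3, a glutamate receptor subunit gene in the same length class, rose from 1.29 to 3.50 FPKM. Ano2 and Ano4, at 0.225 and 0.138 FPKM in control, also span over 250 kb and were listed lower in Prmt5cKO without passing. The part of gene length in any of these differences was not tested.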
